A study of Mus musculus with 18 samples.

Results

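Oxidative phosphorylation is built from 2 genomes, and its genes are described here across 6 genotypes of mouse embryonic stem cells. The genes were taken from the deposited expression table by symbol: the prefixes mt-Nd, mt-Co, mt-Cytb and mt-Atp for the mitochondrial genome, and Ndufa, Ndufb, Ndufc, Ndufs, Ndufv, Sdh, Uqcr, Cox4 to Cox8 and Atp5 for the nuclear genome. Names ending in -ps and Ndufaf assembly factors were dropped. This gave 107 of 56551 rows, 13 of them mitochondrially encoded and 94 nuclear encoded. Among the 94, 5 are no subunits (the complex II assembly factors Sdhaf1 to Sdhaf4, and Atp5s), and 4 of the 107 are annotated as processed pseudogenes (Ndufa11b, Ndufb4c, Ndufs6b and Cox6c2).

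The respiratory chain passes electrons from NADH and succinate to oxygen, and ATP synthase uses the resulting proton gradient to make ATP. Complexes I, III and IV and ATP synthase (complex V) join core subunits made inside the mitochondrion with subunits imported from the cytosol, whereas complex II is wholly nuclear encoded. The mitochondrial genome is copied into long transcripts by its own polymerase, Polrmt, with the factors Tfam and Tfb2m, and the transcripts are cut at transfer RNAs into messenger RNAs that all come from the same few promoters. Embryonic stem cells use glycolysis, and their use of respiration changes as they differentiate. Neither process was measured here.

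The libraries were RNA-seq of mouse embryonic stem cells, 3 for each of 6 genotypes: wild type (WT), Ring1a-KO, Ring1b-KO, Ring1a/b-dKO (both genes), Pcgf-4KO (Pcgf1, Pcgf3, Pcgf5 and Pcgf6 knocked out) and Pcgf-6KO (these 4 with Pcgf2 and Pcgf4 as well). Ring1a (Ring1) and Ring1b (Rnf2) encode the catalytic subunits of Polycomb repressive complex 1, a repressor that places ubiquitin on histone H2A, and the Pcgf genes encode the partner subunits that define its variants (Pcgf4 is also called Bmi1). The sources used here give no medium, clone, deleted exon or batch for these cells, and leave unstated whether separate cultures gave the 3 libraries of a genotype. All p-values therefore measure the spread between libraries, which may be technical.

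Expression is in TPM, a transcript share per length scaled to a fixed total, so read depth is unknown. All 8 embryonic stem cell markers had a mean of 1 TPM or more in every group. Their summed levels were 4135 to 4199 TPM in WT, 3904 to 4207 in Ring1a-KO, 7282 to 7924 in Ring1b-KO and 2597 to 2912 in Ring1a/b-dKO. In Pcgf-4KO they were 3416 to 3545 and in Pcgf-6KO 1706 to 2139. Single markers went both ways: 3 rose and 1 fell in Ring1a-KO, 6 and 2 in Ring1b-KO and 2 and 6 in Ring1a/b-dKO. In Pcgf-4KO 4 rose and 3 fell, and in Pcgf-6KO 1 and 7. Of all genes, 23.1%, 51.8%, 64.4%, 65.0% and 74.2% were called in these 5 groups. Of 14 pairs of a targeted gene and its knockout group, 7 were lower than in WT, 4 were not called and 3 were higher: Pcgf5 in both Pcgf groups and Bmi1 in Pcgf-6KO. Ring1 was not called lower in the libraries labelled Ring1a-KO (adjusted p = 0.0705) or Ring1a/b-dKO (adjusted p = 0.311). The TPM of a whole gene cannot reveal the loss of a single exon, and groups are named below by their labels. Replicates 2 and 3 of Ring1a-KO stood apart, with more of their TPM in small RNAs than the other libraries (up to 2.72% of TPM), and results in that group are given without them where they change. In bulk RNA, fewer cells of a type and less RNA per cell cannot be told apart.

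The mitochondrial rows cannot be read without their nuclear copies. A stretch of mouse chromosome 1 (GRCm38, minus strand) holds a near-identical copy of part of the mitochondrial genome, annotated as separate genes, and 7 of the 13 mitochondrially encoded genes matched such a row. The copy of mt-Co2 (chrM:7013-7696), Gm28661 (chr1:24614885-24615565), matched over 681 bases with 0 differences. For mt-Nd3 (chrM:9459-9806), the copy Gm28438 (chr1:24612775-24613119) matched over 345 bases with 1 difference, T3C, counted from the first base of the gene. The stretches below, printed 5′ to 3′ on the sense strand of the mitochondrial gene, are shown because a read that covers no capital letter carries the same letters from either place: bases 311 to 370 of mt-Co2 (chrM:7323-7382) with the copy (chr1:24615196-24615255), and bases 1 to 60 of mt-Nd3 (chrM:9459-9518) with the copy (chr1:24613060-24613119). Capitals mark the differing base.
mt-Co2: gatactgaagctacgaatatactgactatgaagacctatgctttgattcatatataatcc
Gm28661: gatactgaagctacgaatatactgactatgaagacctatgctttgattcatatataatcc
mt-Nd3: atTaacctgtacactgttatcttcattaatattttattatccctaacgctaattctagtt
Gm28438: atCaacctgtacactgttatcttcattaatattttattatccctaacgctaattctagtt

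The copies of mt-Atp6 (Gm10925, 678 bases), mt-Co3 (Gm28437, 783), mt-Nd4l (Gm10222, 294) and mt-Nd4 (Gm28439, 876) had 0 differences, and that of mt-Co1 (Gm29216, 492 bases) had 6. In the table, most of the value of 5 genes was assigned to the copy. In WT, mt-Co2 was at 587, 525 and 381 TPM and its copy at 12862, 13477 and 13305 TPM, so the mitochondrial row held 3.63% of the sum. The mitochondrial share in WT was 5.97% for mt-Co3, 8.28% for mt-Atp6, 9.08% for mt-Nd4l, 13.6% for mt-Nd3 and 80.6% for mt-Co1, while the copy of mt-Nd4 was listed at 0. How the reads of identical sequences were divided is not given in the sources used here, so the separate rows of these genes are uncertain. In all, 7 genes had no copy row at 1 TPM or more. Of these, mt-Nd1, mt-Nd2, mt-Nd4, mt-Nd5, mt-Nd6 and mt-Cytb are described first, mt-Atp8, which overlaps the copied mt-Atp6, with complex V, and the copied genes with the copy added. Copies were sought only among annotated genes, so an unannotated copy of mt-Atp8 between Gm28661 and Gm10925 would be missed.

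**Figure D1:**
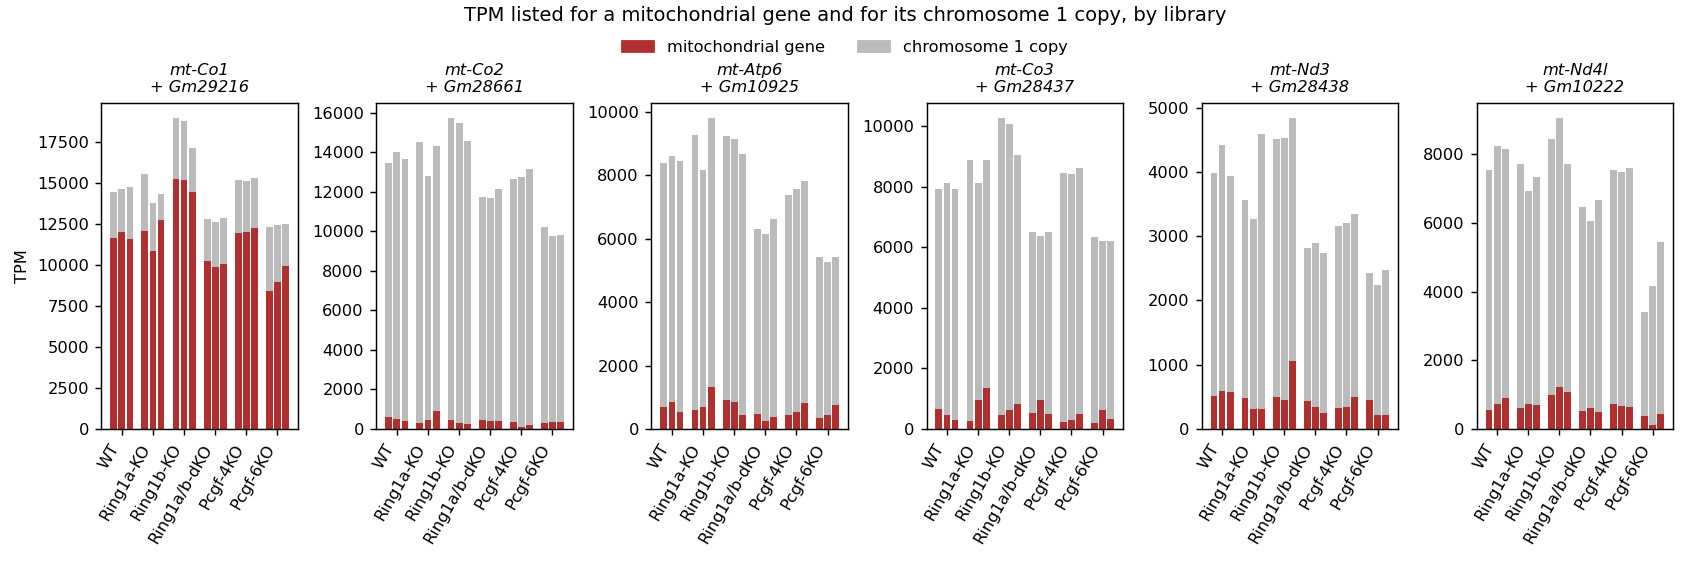
TPM (linear axis) of 6 mitochondrial genes (red) stacked with their chromosome 1 copies (grey) in each of the 18 libraries. For mt-Co2, mt-Atp6, mt-Co3, mt-Nd3 and mt-Nd4l most of each bar is grey, and for mt-Co1 most is red (80.6% in WT).

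Among these 6 genes, complex I transcripts were lowest in Pcgf-6KO and Ring1a/b-dKO. Values were tested with limma on log2(TPM + 1) over 17842 genes, and a gene is called where the Benjamini-Hochberg adjusted p is under 0.05. Changes are log2 fold changes on that scale, which understates those of genes at a few TPM, and each is given with its standard error. mt-Nd1, a core subunit of the membrane arm of complex I, was at 6063, 6324 and 6044 TPM in WT and 3639, 3496 and 3794 TPM in Ring1a/b-dKO. It was at 4681, 4663 and 4804 TPM in Pcgf-4KO and 3163, 3169 and 3487 TPM in Pcgf-6KO. These 3 groups did not overlap WT, and mt-Nd1 fell by 0.75 ± 0.06 on the log2 scale in Ring1a/b-dKO (adjusted p = 2.16e-08), by 0.38 ± 0.06 in Pcgf-4KO (adjusted p = 3.73e-05) and by 0.91 ± 0.06 in Pcgf-6KO (adjusted p = 1.45e-09). In Ring1a-KO (5769.9, 5111 and 6117 TPM) and Ring1b-KO (6793, 6687 and 6261 TPM) the libraries overlapped WT and it was not called, with log2 changes of -0.12 ± 0.06 and 0.10 ± 0.06. Without Ring1a-KO replicate 3 it was called lower there, at -0.18.

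mt-Nd2, another membrane arm subunit, kept the same order of groups, at 2056, 2154 and 2089 TPM in WT, 1607, 1681 and 1752 TPM in Pcgf-4KO, 1216, 1165 and 1294 TPM in Ring1a/b-dKO and 1068, 1098 and 1188 TPM in Pcgf-6KO. None of these knockout libraries reached a WT library, and the log2 changes were -0.32 ± 0.07, -0.78 ± 0.07 and -0.91 ± 0.07, all called. mt-Nd5 was at 1327, 1345 and 1343 TPM in WT, 853, 752 and 879 TPM in Ring1a/b-dKO and 713, 797 and 919.9 TPM in Pcgf-6KO, without overlap. It fell in both (-0.70 ± 0.09 and -0.73 ± 0.09) and was not called in Pcgf-4KO (-0.16 ± 0.09). mt-Nd4 fell by less, -0.32 ± 0.09 in Ring1a/b-dKO and -0.50 ± 0.09 in Pcgf-6KO, and its Pcgf-4KO libraries (2589, 2686 and 2735 TPM) overlapped those of WT (2613, 2720.3 and 2643 TPM).

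mt-Nd6, the only protein gene on the light strand, was at 1109.7, 1079 and 1115 TPM in WT, 1512, 1439.96 and 1403 TPM in Ring1b-KO, 709, 707 and 758 TPM in Ring1a/b-dKO and 871, 805 and 879 TPM in Pcgf-6KO. All Ring1b-KO libraries were above WT and all libraries of the other 2 groups below it. It rose in Ring1b-KO (0.40 ± 0.08, adjusted p = 0.000744) and fell in Ring1a/b-dKO (-0.60 ± 0.08, adjusted p = 8.69e-06) and Pcgf-6KO (-0.37 ± 0.08, adjusted p = 0.000695). mt-Nd5 and mt-Nd6 overlap on opposite strands, and whether counting used strand is not given in the sources used here, so their reads may be shared. mt-Nd5 also rose in Ring1b-KO (0.28 ± 0.09), a call lost without Ring1b-KO replicate 1 (0.24) or replicate 2 (0.24).

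mt-Cytb, the mitochondrial subunit of complex III, showed a different order. It was at 4469, 4576 and 4501 TPM in WT, 4097, 3914 and 4203 TPM in Ring1a/b-dKO, 4576, 4743 and 4738 TPM in Pcgf-4KO and 3065, 3198 and 3437 TPM in Pcgf-6KO. Pcgf-6KO was below all other groups, and mt-Cytb fell there by 0.48 ± 0.05 on the log2 scale (adjusted p = 6.1e-07). In Ring1a/b-dKO the fall was -0.15 ± 0.05 (adjusted p = 0.0206), a call lost without Ring1a/b-dKO replicate 2 (-0.12) or WT replicate 2 (-0.14). Within the same group the log2 changes of mt-Nd1 and mt-Cytb were thus -0.75 and -0.15, and that difference between 2 genes was not tested.

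**Figure D2:**
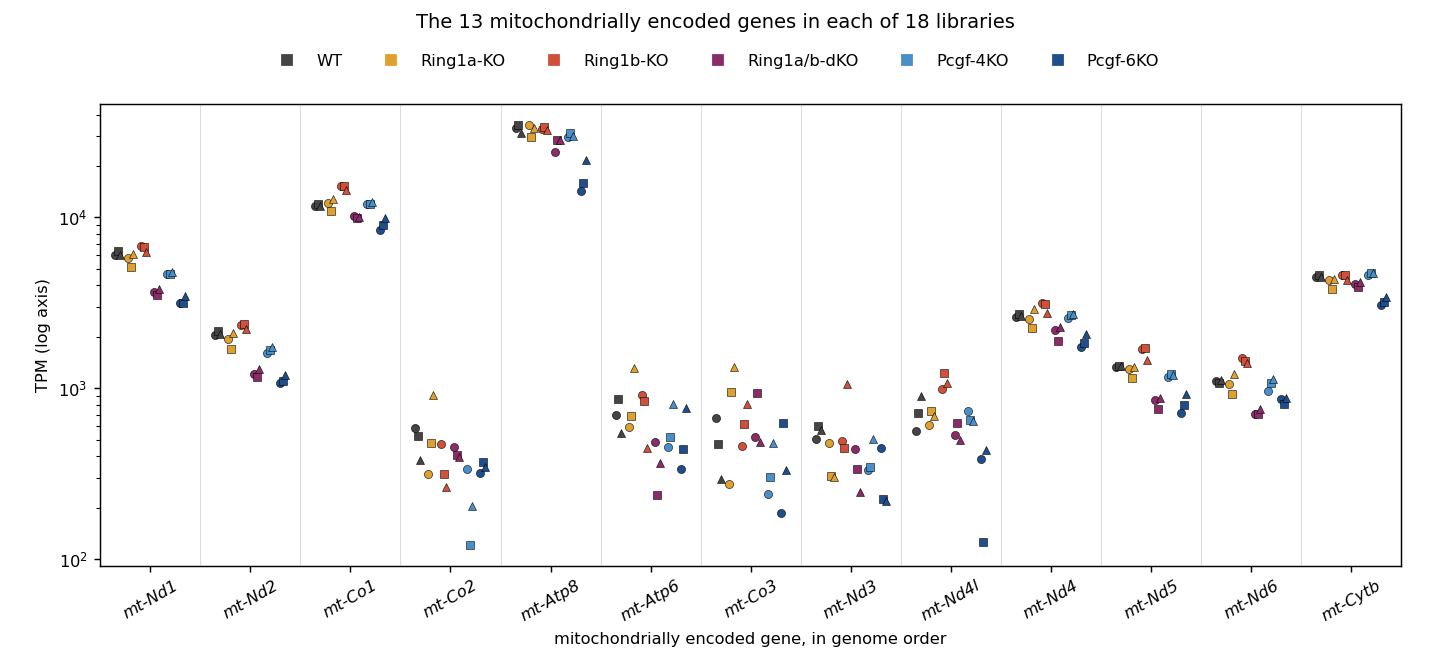
TPM (log axis) of the 13 mitochondrially encoded genes in the order of the mitochondrial genome, 1 point per library, coloured by genotype with a marker per replicate. mt-Nd1 and mt-Nd2 lie lowest in Pcgf-6KO and Ring1a/b-dKO, and the rows of mt-Co2, mt-Co3, mt-Atp6, mt-Nd3 and mt-Nd4l lie low in all groups with most of their value in the rows of the copies.

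Among the complex IV and V genes, mt-Co1, the catalytic subunit of cytochrome c oxidase, was at 11672, 12049 and 11613 TPM in WT and 15287, 15234 and 14499.5 TPM in Ring1b-KO. It was at 10236, 9914 and 10104 TPM in Ring1a/b-dKO and 8454, 8978 and 9969.7 TPM in Pcgf-6KO, with no overlap of WT in these 3 groups. It rose in Ring1b-KO (0.35 ± 0.06) and fell in Ring1a/b-dKO (-0.22 ± 0.06) and Pcgf-6KO (-0.37 ± 0.06). With the copy added the log2 changes were 0.32, -0.19 and -0.23. mt-Atp8, a short gene of the membrane part of ATP synthase, had the highest row of all members, at 33401, 34734 and 31114 TPM in WT, 24260.3, 28382 and 28416 TPM in Ring1a/b-dKO and 14330.1, 15802 and 21691 TPM in Pcgf-6KO. All libraries of both knockouts were below WT. It fell in Pcgf-6KO (-0.96 ± 0.12, adjusted p = 2.03e-06) and Ring1a/b-dKO (-0.29 ± 0.12, adjusted p = 0.0366), the latter a call lost without Ring1a/b-dKO replicate 1 (-0.22), WT replicate 1 (-0.29) or WT replicate 2 (-0.26). It overlaps mt-Atp6 and held 50.3% of the summed mitochondrial TPM in WT, so sums are also given without it.

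The copied genes gave other answers as single rows than as sums. As a single row, mt-Co2 was called only in Pcgf-4KO, at -1.27 ± 0.36, and with its copy added it was not called there (-0.09 ± 0.05, adjusted p = 0.0881). Summed with its copy, mt-Co2 fell in Ring1a/b-dKO (-0.21 ± 0.05) and in Pcgf-6KO (-0.47 ± 0.05). As single rows, mt-Atp6 fell in Ring1a/b-dKO (-0.99 ± 0.38, adjusted p = 0.0346), and mt-Nd3 (-0.99 ± 0.34) and mt-Nd4l (-1.36 ± 0.33) fell in Pcgf-6KO. The first call was lost without Ring1a/b-dKO replicate 2 (-0.72) or 3 (-1.03) or WT replicate 1 (-0.98) or 2 (-0.83), and that of mt-Nd3 without Pcgf-6KO replicate 2 (-0.83) or 3 (-0.81). The row of mt-Co3, another core subunit of complex IV, was called in none of the 7 comparisons (none at an unadjusted p under 0.05), with log2 values of 0.45 in Ring1a/b-dKO and -0.41 in Pcgf-6KO. Summed, mt-Co3 fell in both, by 0.31 ± 0.04 and 0.35 ± 0.04 on the log2 scale, and rose in Ring1b-KO (0.29 ± 0.04). The summed log2 changes in Ring1a/b-dKO and Pcgf-6KO were -0.42 and -0.66 for mt-Atp6, -0.54 and -0.78 for mt-Nd3 and -0.32 and -0.90 for mt-Nd4l, all called. These sums were formed after the single rows had been seen.

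Counted over the 13 rows as deposited, 0 were called in Ring1a-KO by limma (1 was lower at an unadjusted p under 0.05), beside 23.1% of all genes tested, and without Ring1a-KO replicate 3 the count was 2 lower. In Ring1b-KO 3 rose (mt-Co1, mt-Nd5 and mt-Nd6) and 0 fell, also at an unadjusted p, beside 51.8% of all genes called (34.7% higher and 17.1% lower). In Ring1a/b-dKO 0 rose and 9 fell, beside 64.4% called (48.6% higher, 15.8% lower). In Pcgf-4KO 0 rose and 3 fell, beside 65.0% called (47.1% higher, 17.9% lower), and in Pcgf-6KO 0 rose and 10 fell, beside 74.2% called (51.7% higher, 22.5% lower). The counts of rows that rose were 0 at an unadjusted p in these 3 comparisons too. With the copies added, 13 of 13 fell in Ring1a/b-dKO and in Pcgf-6KO, 4 fell in Pcgf-4KO, 5 rose in Ring1b-KO and 0 were called in Ring1a-KO. The 5 comparisons share the WT libraries and are given side by side.

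The median log2 change of the 13 rows was -0.06 in Ring1a-KO, 0.14 in Ring1b-KO, -0.38 in Ring1a/b-dKO, -0.16 in Pcgf-4KO and -0.52 in Pcgf-6KO. The median of all 17842 genes was 0.01, 0.13, 0.28, 0.25 and 0.33 in the same order, so relative to all genes the mitochondrial rows were lower still in the last 3. Median ratio scaling brought the all-gene median to between -0.01 and 0.04, and under it the numbers that rose and fell were 0 and 3 in Ring1a-KO, 2 and 1 in Ring1b-KO, 0 and 10 in Ring1a/b-dKO, 0 and 10 in Pcgf-4KO, then 0 and 12 in Pcgf-6KO. Of the 6 genes without a copy row at 1 TPM or more, other than mt-Atp8, 6 fell in Ring1a/b-dKO (median -0.65) and 6 in Pcgf-6KO (median -0.61), 2 fell in Pcgf-4KO (median -0.11) and 2 rose in Ring1b-KO (median 0.16).

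The direct comparisons between knockouts gave the same direction. In Ring1a/b-dKO against Ring1b-KO, 11 of 13 mitochondrial rows fell and 0 rose, also at an unadjusted p, beside 59.9% of all genes called (18.8% lower). Their median was -0.85, against 0.17 for all genes, and without Ring1b-KO replicate 2 the count was 7. mt-Nd6 fell by 1.001 ± 0.08 on the log2 scale and mt-Nd5 by 0.97 ± 0.09. In Pcgf-6KO against Pcgf-4KO, 9 fell and 0 rose, also at an unadjusted p, beside 52.8% called (24.0% lower). The median was -0.50, against 0.03 for all genes, with mt-Cytb at -0.54 ± 0.05 and mt-Atp8 at -0.84 ± 0.12. In this comparison 1 row, mt-Co2, was called higher without Pcgf-4KO replicate 1, at 1.12, whereas its sum with the copy was lower (-0.37 ± 0.05).

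The sum of the 13 mitochondrial rows was 65680.2 ± 2499 TPM in WT (SD, n = 3), 6.57% of all TPM. It was 64399.7 ± 5435 TPM in Ring1a-KO, 71007 ± 1978 in Ring1b-KO, 60649 ± 1160.4 in Pcgf-4KO, 52049 ± 2141 in Ring1a/b-dKO (5.20%) and 39434 ± 5589.9 in Pcgf-6KO (3.94%). The sum of the 94 nuclear rows varied less, from 21137 ± 736 TPM in Ring1a-KO to 24644 ± 436 TPM in Ring1b-KO, with 21989 ± 144 TPM in WT, 22680.1 ± 177 in Ring1a/b-dKO, 23435 ± 188 in Pcgf-4KO and 24303 ± 1227 in Pcgf-6KO. On the deposited scale the mitochondrial sum was thus lower and the nuclear sum higher than in WT in Ring1a/b-dKO, Pcgf-4KO and Pcgf-6KO, without overlap. The direction of the nuclear rows depends on the scaling, as counted below.

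Their ratio does not depend on the total to which TPM is scaled. It was 3.01, 3.10 and 2.85 in the WT libraries, 3.002, 2.83 and 3.31 in Ring1a-KO and 2.91, 2.998 and 2.74 in Ring1b-KO, and these 3 groups overlapped. It was 2.51, 2.63 and 2.63 in Pcgf-4KO, 2.20, 2.31 and 2.38 in Ring1a/b-dKO and 1.38, 1.53 and 1.99 in Pcgf-6KO. Each of these 3 groups lay below WT without overlap, and they did not overlap each other. From the highest, the group means were 3.05 ± 0.240 in Ring1a-KO, 2.99 ± 0.127 in WT, 2.88 ± 0.130 in Ring1b-KO, 2.59 ± 0.0696 in Pcgf-4KO, 2.29 ± 0.0926 in Ring1a/b-dKO and 1.63 ± 0.317 in Pcgf-6KO (SD, n = 3). The ratio is a description over chosen genes and was given no test.

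Pcgf-6KO, Ring1a/b-dKO and Pcgf-4KO, from the lowest, also had the lowest means in the other ways of forming the ratio over all complexes. With mt-Atp8 and mt-Nd4l left out, the mean ratio was 1.45 in WT, 1.26 in Pcgf-4KO, 1.08 in Ring1a/b-dKO and 0.903 in Pcgf-6KO. With nuclear copies added to the members they match, it was 4.45, 3.96, 3.51 and 2.63. Over only the 7 mitochondrial and 84 nuclear genes without a pseudogene copy row reaching 1 TPM, it was 2.73, 2.32, 2.05 and 1.40. With mt-Atp8 left out as well it was 0.958, 0.801, 0.652 and 0.546. This set still holds mt-Nd4, whose copy was listed at 0, and Sdhaf1 and Ndufb9, which match rows annotated as protein-coding. It also holds Ndufb4c, itself the copy of Ndufb4. By complex, mean ratios are given for WT, Pcgf-4KO, Ring1a/b-dKO and Pcgf-6KO in that order. They were 2.85, 2.19, 1.77 and 1.45 for complex I and 1.73, 1.61, 1.42 and 1.03 for complex III. For complex IV they were 2.48, 2.46, 2.12 and 1.70, and for complex V 3.97, 3.37, 3.15 and 2.02. These ratios by complex use the rows as deposited, without the copies. In WT, mt-Co1 gave 11778 of the 12752 TPM in the mitochondrial sum of complex IV. For complex V, mt-Atp8 gave 33083 of 33786 TPM, so each of these 2 ratios largely follows 1 mitochondrial gene. In complex IV the Pcgf-4KO libraries (2.42 to 2.53) overlapped those of WT (2.38 to 2.54). Complex III departed from the order above, with Ring1b-KO (1.45 ± 0.0561) below Pcgf-4KO (1.61 ± 0.0442).

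**Figure D3:**
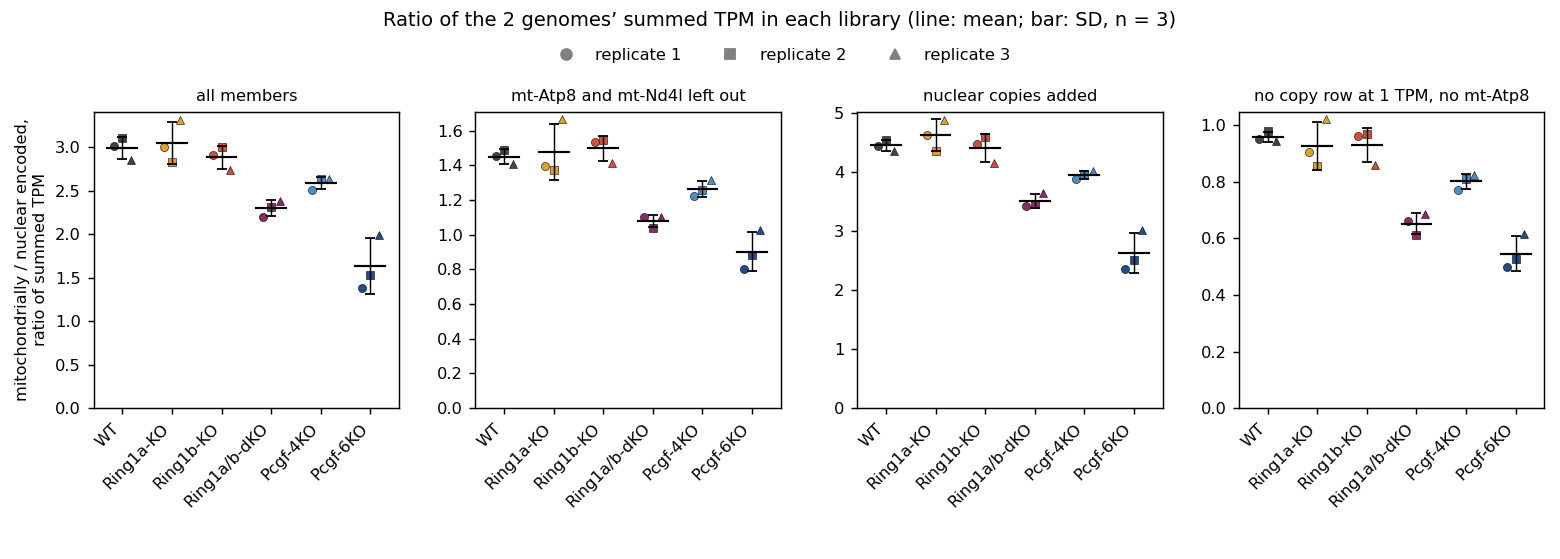
Ratio of summed mitochondrially encoded to summed nuclear encoded TPM by library in 4 versions (panels), with points for libraries, lines for means and bars for the SD of 3 libraries. In each panel Pcgf-6KO, Ring1a/b-dKO and Pcgf-4KO have lower means than WT, and in the panel of all members the means are 1.63, 2.29 and 2.59 against 2.99.

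Of the 94 nuclear rows, 89 passed the filter of 1 TPM or more in at least 3 libraries. Ndufa11b, Cox6a2, Cox6c2, Cox8b and a second row named Atp5o did not pass and were not tested. In WT the tested rows had a median of 149.9 TPM, and the highest member of each complex was Ndufa7 (500 TPM; complex I), Sdhd (149.9; complex II), Uqcr10 (693; complex III), Cox7c (883; complex IV) and Atp5b (2874; complex V), the catalytic beta subunit of ATP synthase. In Ring1a-KO 6 rose and 11 fell, beside 12.3% and 10.8% of all genes, and in Ring1b-KO 39 rose and 5 fell. In Ring1a/b-dKO 31 rose and 25 fell, in Pcgf-4KO 33 rose and 22 fell, and in Pcgf-6KO 38 rose and 19 fell. The rises in all groups but Ring1a-KO include Cox8c, which passed the filter only through the knockouts. Beside the all-gene percentages given above, the share of members called either way was 49.4%, 62.9%, 61.8% and 64.0% in the last 4 groups.

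These directions depend on the scaling. The median of the 89 was -0.06, 0.13, 0.03, 0.08 and 0.14 in the 5 groups in that order, at or below the all-gene median in each. The numbers that rose and fell became, under median ratio scaling, 16 and 16 in Ring1b-KO, 4 and 59 in Ring1a/b-dKO, 4 and 49 in Pcgf-4KO, then 9 and 49 in Pcgf-6KO. Of all 17842 genes, 4737 and 4962, 5816 and 5678, 5816 and 5723, and 6874 and 6318 did so. The same all-gene counts stand beside each count against WT under that scaling below. With quantile normalization 25 nuclear members rose and 27 fell in Ring1a/b-dKO, 25 and 30 in Pcgf-4KO, then 26 and 28 in Pcgf-6KO. The all-gene counts there were 5329 and 5730, 5573 and 5660, and 6009 and 6893. Most changes were small: 0 called nuclear members in Ring1a-KO, 6 in Ring1b-KO, 4 in Ring1a/b-dKO, 3 in Pcgf-4KO and 3 in Pcgf-6KO changed by 2-fold or more. The last 4 counts each include Cox8c, which passed the filter only through the knockouts, and are 5, 3, 2 and 2 without it. Without Ring1a-KO replicates 2 and 3 together, 4 rather than 11 fell in that group. Leaving out Ring1a-KO replicate 1 gave 3 that rose and 18 that fell, and leaving out WT replicate 2 gave 7 that fell.

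**Figure D4:**
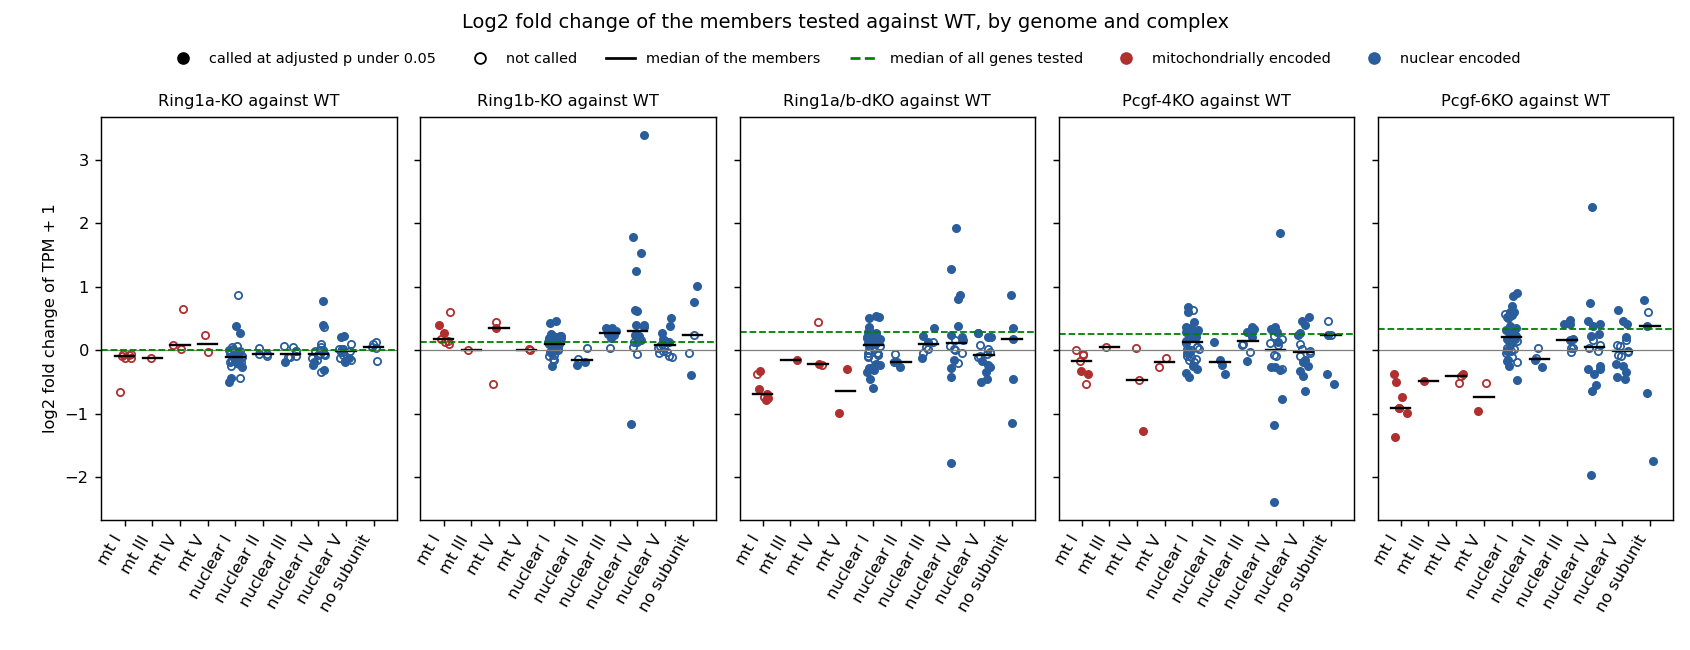
Log2 fold change against WT on the log2(TPM + 1) scale for the 102 tested members in the 5 knockouts (panels), arranged by genome and complex, with filled points for called members, a black line at the median of each set and a green dashed line at the median of all genes. Most mitochondrial members lie below the green line in Ring1a/b-dKO, where mt-Co3 is above it (0.45), and all 13 in Pcgf-6KO, and the set medians are -0.38 and -0.52 against 0.28 and 0.33 for all genes.

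Complex I, the NADH dehydrogenase, had 38 tested nuclear rows. In Ring1b-KO 11 rose and 1 fell, in Ring1a/b-dKO 13 rose and 9 fell, in Pcgf-4KO 17 rose and 4 fell, and in Pcgf-6KO 20 rose and 3 fell. With median ratio scaling these were 2 and 5, 0 and 22, 2 and 18, and 5 and 17. As deposited, 31.6%, 57.9%, 55.3% and 60.5% of the 38 were called, below the 51.8%, 64.4%, 65.0% and 74.2% of all genes. Ndufa11, a membrane subunit, was at 248, 237 and 255 TPM in WT, 361, 364 and 354 TPM in Ring1a/b-dKO, 406, 391 and 389.6 TPM in Pcgf-4KO and 385, 366 and 327 TPM in Pcgf-6KO. All libraries of the 3 knockouts were above WT, with log2 changes of 0.54 ± 0.06, 0.68 ± 0.06 and 0.54 ± 0.06, the first not called under median ratio scaling (0.18). Ndufa8, an accessory subunit of the intermembrane space, rose from 78.7 ± 3.12 TPM to 120.2 ± 7.38 in Pcgf-4KO (0.60 ± 0.08) and 145 ± 20.5 in Pcgf-6KO (0.86 ± 0.08). It also rose in Ring1b-KO (0.45 ± 0.08) and Ring1a/b-dKO (0.52 ± 0.08), the latter not called under median ratio scaling (0.15).

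Ndufb11, an X-linked membrane subunit, was at 82.02, 87.1 and 81.2 TPM in WT, 56.9, 56.9 and 62.1 TPM in Ring1a-KO and 172, 154 and 143 TPM in Pcgf-6KO. It fell in the first (-0.50 ± 0.06, adjusted p = 2.68e-05) and rose in the second (0.90 ± 0.06, adjusted p = 2.51e-09), without overlap. Ndufv3, an accessory subunit of the NADH-binding module, fell in all 5 knockouts, from 133, 136 and 148 TPM in WT to 110.05, 96.7 and 99.97 in Ring1a-KO, 123, 111 and 118 in Ring1b-KO, 95.3, 91.9 and 86.5 in Ring1a/b-dKO, 102, 108 and 102 TPM in Pcgf-4KO and 101, 99.4 and 99.2 TPM in Pcgf-6KO. Its log2 changes were -0.44, -0.25, -0.60, -0.41 and -0.47, and no knockout library reached WT. Ndufa7, the highest member of the complex, fell by 0.23 ± 0.07, 0.24 ± 0.07 and 0.26 ± 0.07 on the log2 scale in Ring1a/b-dKO, Pcgf-4KO and Pcgf-6KO (499.8 ± 16.6 TPM in WT and 421 ± 56.05 in Pcgf-6KO), the first a call lost without Ring1a/b-dKO replicate 1 (-0.19). Ndufb4, a small accessory subunit, shares sequence with the row Ndufb4c, a processed pseudogene at 268.9 TPM in WT against 25.4 TPM for Ndufb4, so the level of either is uncertain.

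Complex II, succinate dehydrogenase, has no mitochondrially encoded subunit, and all 4 of its subunits are described. Sdhb, the iron-sulphur subunit, was at 123, 126 and 125 TPM in WT and fell in Ring1b-KO (-0.23), Ring1a/b-dKO (-0.19), Pcgf-4KO (-0.15) and Pcgf-6KO (-0.26). The call in Ring1a/b-dKO was lost without its replicate 2 (-0.15), and that in Pcgf-4KO without any one of the 6 libraries (-0.16 to -0.14). Sdhd, a membrane anchor, fell in Ring1a/b-dKO (-0.26) and Pcgf-4KO (-0.23), and Sdhc, the other anchor, in Pcgf-4KO (-0.38). Sdha, the flavoprotein subunit, fell in Ring1b-KO (-0.18) and was the only one of the 4 to rise in a knockout, in Pcgf-4KO (0.13). That rise was lost without WT replicate 1 (0.10), and under median ratio scaling Sdha fell there (-0.19). After median ratio scaling 3 of the 4 fell in Ring1b-KO and 4 of 4 in Ring1a/b-dKO, Pcgf-4KO and Pcgf-6KO, against 2, 3, 3 and 2 as deposited. Of all genes, 17.1%, 15.8%, 17.9% and 22.5% fell as deposited. None of the 4 was called in Ring1a-KO by limma, with log2 values from -0.08 to 0.03.

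Among assembly factors of complex II, Sdhaf3, which helps to mature Sdhb protein, was at 27.9, 27.7 and 24.8 TPM in WT, 11.9, 10.4 and 12.4 TPM in Ring1a/b-dKO, 19.6, 19.8 and 21.6 TPM in Pcgf-4KO and 5.39, 8 and 8.95 TPM in Pcgf-6KO. No knockout library reached WT in these 3 groups, and the log2 changes were -1.14 ± 0.14 (adjusted p = 2.87e-06), -0.38 ± 0.14 (adjusted p = 0.0247) and -1.74 ± 0.14 (adjusted p = 1.61e-08). The call in Pcgf-4KO was lost without Pcgf-4KO replicate 1 (-0.36) or 2 (-0.36) or WT replicate 1 (-0.35) or 2 (-0.36). In Ring1b-KO Sdhaf3 fell as well (-0.39 ± 0.14, adjusted p = 0.0266), without overlap of WT, a call lost without Ring1b-KO replicate 1 (-0.40) or 3 (-0.31) or WT replicate 1 (-0.36) or 2 (-0.37). Sdhaf3 lies on chromosome 6 (GRCm38, chr6:6956004-7042979, plus strand). Sdhaf4, which helps the flavoprotein to assemble, fell from 26.1 ± 2.49 TPM to 18.9 ± 3.63 in Ring1a/b-dKO, 17.7 ± 0.190 in Pcgf-4KO and 16.2 ± 3.26 in Pcgf-6KO. Sdhaf2, which attaches the flavin cofactor, rose in Pcgf-6KO (0.38 ± 0.06). Sdhaf1 rose more in Pcgf-6KO (0.79 ± 0.10, adjusted p = 3.61e-06), and also rose there against Pcgf-4KO (0.55 ± 0.10). It shares 1733 bases without mismatch with the row E130208F15Rik, so its level is uncertain.

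Complex III, the cytochrome bc1 complex, had 8 nuclear rows, of which 7 rose and 0 fell in Ring1b-KO, 3 and 1 in Ring1a/b-dKO, 4 and 1 in Pcgf-4KO, then 5 and 0 in Pcgf-6KO. None was lower in Ring1b-KO or Pcgf-6KO at an unadjusted p under 0.05 either. The share of the 8 called was 87.5%, 50%, 62.5% and 62.5%, against 51.8%, 64.4%, 65.0% and 74.2% of all genes. Uqcrc1, a core subunit, rose from 254, 249 and 267 TPM in the WT libraries to 300.3, 302 and 308 in Ring1b-KO, 329, 325 and 331 in Ring1a/b-dKO, 341, 328 and 321 TPM in Pcgf-4KO and 337, 348 and 334 TPM in Pcgf-6KO. No library of these 4 groups overlapped WT, and the log2 changes were 0.24, 0.36, 0.36 and 0.40. Uqcr10, a small subunit, rose in the same 4 groups, from 693 ± 44.6 TPM in WT to 968 ± 78.01 in Pcgf-6KO (0.48 ± 0.06), the group in which mt-Cytb fell. Uqcrfs1, the Rieske iron-sulphur protein, rose in Ring1b-KO (0.30 ± 0.04). Counts that rose and fell under median ratio scaling were 2 and 0 in Ring1b-KO, 0 and 6 in Ring1a/b-dKO, 0 and 4 in Pcgf-4KO, then 0 and 5 in Pcgf-6KO, and Uqcrc1, at -0.01 in Ring1a/b-dKO, was called in none of the 4 groups.

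Complex IV, cytochrome c oxidase, differs from the other complexes in that several of its nuclear subunits have tissue-restricted isoforms. Among its 18 tested nuclear rows, 14 rose and 1 fell in Ring1b-KO, 8 and 4 in Ring1a/b-dKO, 5 and 6 in Pcgf-4KO, then 7 and 7 in Pcgf-6KO. Under median ratio scaling these were 9 and 1, 4 and 10, 1 and 10, and 2 and 9. As deposited, 83.3%, 66.7%, 61.1% and 77.8% of the 18 were called, against 51.8%, 64.4%, 65.0% and 74.2% of all genes. The rises as deposited each include Cox8c, described below, which passed the filter only through the knockouts. Cox6b2, the testis isoform of the subunit that faces the intermembrane space, was at 43.4, 44.5 and 44.1 TPM in WT. It reached 75.6, 70.4 and 83.05 TPM in Ring1a-KO, 126, 132 and 128 in Ring1b-KO, 76.8, 73.7 and 81.7 in Ring1a/b-dKO, 60.5, 51.6 and 54.96 TPM in Pcgf-4KO and 37.9, 36.7 and 32.9 TPM in Pcgf-6KO. Every knockout group was apart from WT, the first 4 above it and Pcgf-6KO below. Its log2 changes were 0.78 ± 0.07 (adjusted p = 1.05e-06), 1.53 ± 0.07 (adjusted p = 8.08e-11), 0.80 ± 0.07, 0.33 ± 0.07 and -0.29 ± 0.07, the last 3 at adjusted p = 6.38e-08, 0.00056 and 0.00133. The somatic isoform Cox6b1 was at 369 ± 13.7 TPM in WT and 568 ± 31 in Ring1b-KO, so Cox6b2 made up 10.6% ± 0.406 of the pair in WT. That share was 18.7% ± 0.178 in Ring1a-KO, 18.5% ± 0.933 in Ring1b-KO, 19.5% ± 2.40 in Ring1a/b-dKO, 15.8% ± 2.22 in Pcgf-4KO and 7.96% ± 0.433 in Pcgf-6KO.

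Cox7a1, the heart and muscle isoform of another subunit, was at 21.8, 20.7 and 22 TPM in WT, 69.3, 72.4 and 87.9 in Ring1b-KO, 18.7, 26.8 and 22.6 in Ring1a/b-dKO, 11.02, 11.1 and 5.83 TPM in Pcgf-4KO and 17.8, 11.1 and 12.1 TPM in Pcgf-6KO. It rose in Ring1b-KO without overlap (1.78 ± 0.22, adjusted p = 6.77e-06), fell in Pcgf-4KO (-1.17 ± 0.22) and was not called in Ring1a/b-dKO (0.06 ± 0.22). The fall in Pcgf-6KO (-0.64 ± 0.22) was lost without Pcgf-6KO replicate 2 (-0.52) or 3 (-0.58). As a share of its pair with Cox7a2, the form present in most tissues, Cox7a1 went from 8.62% ± 0.340 in the WT libraries to 22.2% ± 1.87 in Ring1b-KO. Cox7a2 itself fell from 228 ± 3.48 TPM to 169.7 ± 5.54 in Ring1a/b-dKO and 134 ± 1.34 in Pcgf-4KO (-0.76 ± 0.08).

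Cox8c, the testis isoform of the smallest subunit, was at 0, 0 and 0.300 TPM in WT, 12.3, 6.88 and 13.01 in Ring1b-KO, 4.23, 2.13 and 3.28 in Ring1a/b-dKO, 3.26, 3.28 and 2.34 TPM in Pcgf-4KO and 4.47, 3.94 and 4.14 TPM in Pcgf-6KO. It was tested only because the knockouts reached 1 TPM, so it had to differ, and it rose in all 4. Cox7b2, another testis-enriched isoform, rose from 2.34, 2.18 and 0.620 TPM to 5.90, 5.30 and 4.60 in Ring1a/b-dKO (1.27 ± 0.24). Cox4i2, the lung and oxygen-responsive isoform, rose from 1.65, 1.96 and 2.11 TPM in the WT libraries to 6.34, 5.26 and 6.13 in Ring1b-KO (1.25 ± 0.11), beside Cox4i1 at 753 ± 26.9 TPM in WT. Ndufa4l2, a paralogue of the complex IV subunit Ndufa4 that is induced by low oxygen, fell from 9.16, 7.92 and 8.19 TPM in the WT libraries to 5.27, 2.95 and 2.05 in Ring1b-KO, 0.780, 3.32 and 1.71 in Ring1a/b-dKO, 0.750, 0.440 and 1.33 TPM in Pcgf-4KO and 1.05, 1.11 and 2.22 TPM in Pcgf-6KO, all below WT. The log2 changes were -1.15 ± 0.31, -1.77 ± 0.31, -2.38 ± 0.31 and -1.97 ± 0.31.

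**Figure D5:**
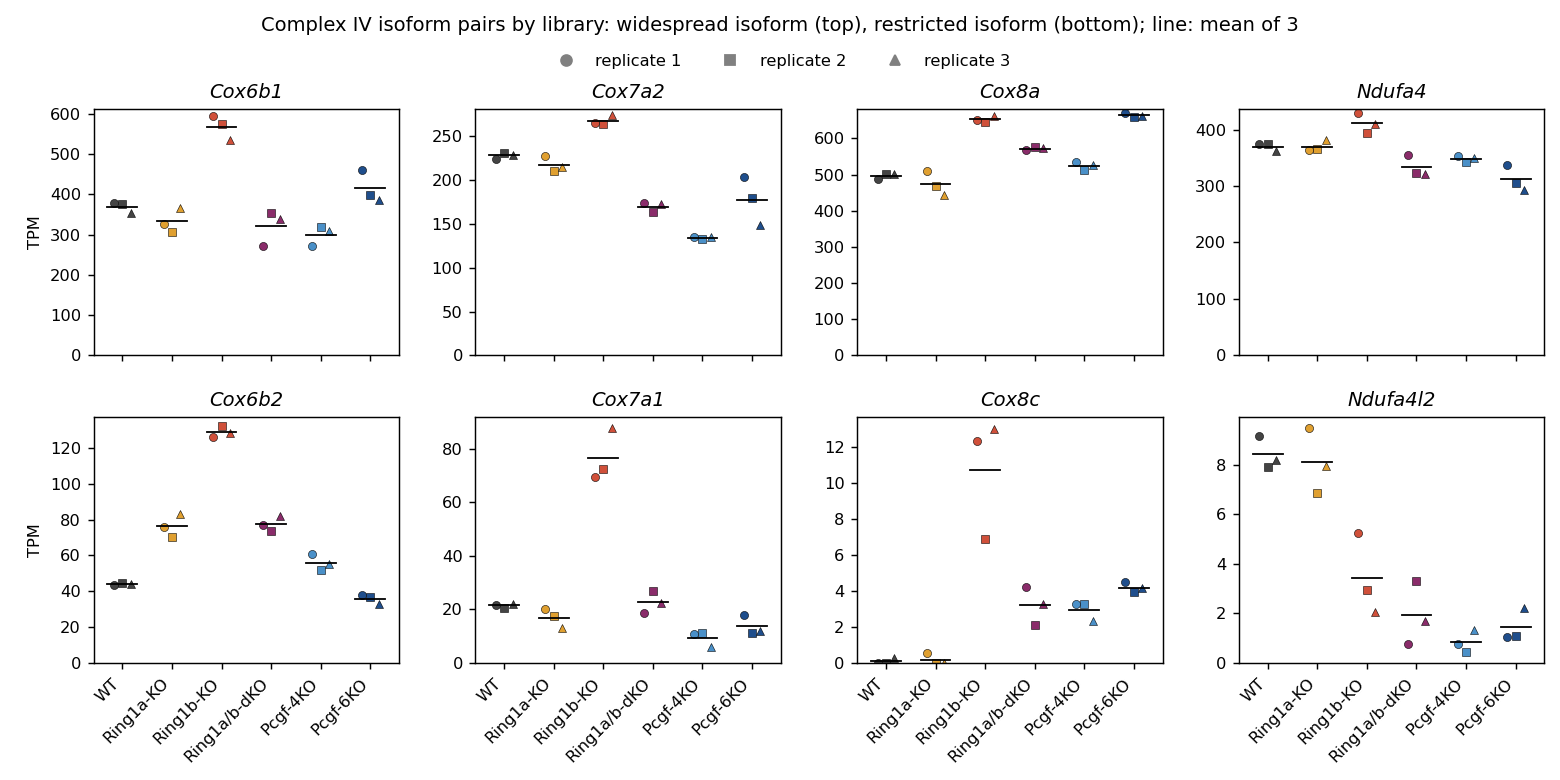
TPM of a common subunit and its tissue-restricted or inducible form in each library, in pairs (Cox6b1 and Cox6b2, Cox7a2 and Cox7a1, Cox8a and Cox8c, Ndufa4 and Ndufa4l2), with lines at group means. Cox6b2 is highest in Ring1b-KO, between 126 and 132 TPM, and Ndufa4l2 is lower in 4 knockouts than in WT.

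Markers of other cell types also differed between the groups. The sum of 5 germ cell genes (Dazl, Ddx4, Mael, Taf7l and Sycp3) was 28.4 to 30.3 TPM in WT and 26.1 to 35.8 in Ring1a-KO. It was 355 to 360 in Ring1b-KO, 415 to 436 in Ring1a/b-dKO, 381 to 397 in Pcgf-4KO and 393 to 415 in Pcgf-6KO, and 5 of 5 rose in each of the last 4. The sum of 6 muscle and heart genes was 7.17 to 10.2 TPM in WT and between 23.8 and 40.6 in the same 4 groups, with Actc1 listed at 0 in Ring1a/b-dKO. The sum of 8 fibroblast genes was 13.6 to 16.4 TPM in WT, 20.65 to 24.6 in Ring1b-KO, 19.7 to 21.8 in Ring1a/b-dKO, 9.09 to 12.4 in Pcgf-4KO and 11.6 to 14.3 in Pcgf-6KO, with Lum listed at 0 in Ring1b-KO and Ring1a/b-dKO. In Ring1a-KO that sum was 16.07 to 18.2 TPM. Of the 3 fibroblast genes tested, 3 rose in Ring1b-KO, 2 in Ring1a/b-dKO, 1 in Ring1a-KO and 1 in Pcgf-6KO. In Pcgf-4KO 1 rose and 1 fell. Of all genes, 34.7%, 48.6%, 12.3% and 51.7% rose in the first 4 of these groups, and 47.1% rose and 17.9% fell in Pcgf-4KO. The part of these cell types in the isoform changes was not tested. Cox6b2 rose in Ring1a-KO, where the germ cell sum overlapped WT, and fell in Pcgf-6KO, where that sum was high. Cox8c was tested only because the knockouts reached 1 TPM, so its rise in 4 groups cannot be set against the germ cell sum. In Ring1a-KO it made up 0.0371% of its family, against 0.0200% in WT, with a lowest share of 0 in both. Cox7b2 made up 2.97% of its pair in Ring1a/b-dKO and 0.939% in WT. Its share was 0.865%, 0.748% and 0.866% in Ring1b-KO, Pcgf-4KO and Pcgf-6KO. Cox7a1 rose in Ring1b-KO, where the muscle and heart sum was 23.8 to 25.7 TPM, and fell in Pcgf-4KO, where it was 37.6 to 40.6 TPM.

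Among the other complex IV subunits, Cox5b, at 232 ± 5.80 TPM in WT, fell in Ring1a-KO (-0.31 ± 0.05) and rose in Pcgf-6KO (0.74 ± 0.05). Cox7c, the highest row of the complex in WT but not in the next 3 groups, fell in Ring1a/b-dKO, Pcgf-4KO and Pcgf-6KO. The falls were by 0.29 ± 0.04, 0.27 ± 0.04 and 0.29 ± 0.04 on the log2 scale (883 ± 28.6 TPM in WT and 725 ± 22.6 in Ring1a/b-dKO). It has a copy row, Gm12338, so its level is uncertain.

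Complex V, ATP synthase, had 16 tested nuclear rows, of which 5 rose and 0 fell in Ring1b-KO, 4 and 6 in Ring1a/b-dKO, 5 and 6 in Pcgf-4KO, then 4 and 5 in Pcgf-6KO. With median ratio scaling these were 1 and 5, 0 and 14, 1 and 11, and 1 and 12. As deposited, 31.25%, 62.5%, 68.75% and 56.25% of the 16 rows were called, against 51.8%, 64.4%, 65.0% and 74.2% of all genes. The 2 main subunits of its catalytic head differed on the deposited scale. Atp5b was at 2852, 2894 and 2876 TPM in WT and rose to 3162, 3484 and 3337 in Ring1a/b-dKO (0.21 ± 0.07) and 3395, 3432 and 3533 in Pcgf-4KO (0.26 ± 0.07), with no overlap, but was at -0.16 and -0.06 under median ratio scaling. Without Ring1a/b-dKO replicate 2 the first of these calls was lost (0.18). Atp5a1, the alpha subunit, fell from 707, 702 and 718 TPM to 569, 554 and 559 in Ring1a/b-dKO (-0.34 ± 0.03) and 546, 566 and 560.1 in Pcgf-6KO (-0.35 ± 0.03). Atp5o, of the peripheral stalk, rose in Pcgf-4KO (0.46 ± 0.05) and Pcgf-6KO (0.41 ± 0.05), and Atp5c1, the central shaft, fell in both (by 0.19 ± 0.04 and 0.45 ± 0.04 on the log2 scale).

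Comparing knockouts directly, 12 nuclear rows rose and 43 fell in Ring1a/b-dKO against Ring1b-KO (41.1% of all genes rose and 18.8% fell), with a median of -0.15 against 0.17 for all genes. The counts under median ratio scaling were 1 and 59, and 5481 and 5163 among all 17842 genes. Complex IV gave 13 of the falls and complexes I and V 11 each. Cox6b1 fell by 0.83 ± 0.10 on the log2 scale and Cox7a1 by 1.72 ± 0.22. In Pcgf-6KO against Pcgf-4KO 25 rose and 11 fell (28.8% and 24.0% of all genes), with a median of 0.11 against 0.03 for all genes. Under median ratio scaling 14 rose and 11 fell, and 4710 and 4983 among all genes. Leaving out Pcgf-6KO replicate 3 raised the first count to 40. Sdhaf3 fell by 1.36 ± 0.14 and Ndufb11 rose by 0.64 ± 0.06. The 2 comparisons share no library.

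Promoter sequences from RefSeq (GRCm38.p6, 300 bases from 250 before to 50 after the start) matched 73 of the 94 nuclear rows. The NRF1 motif, the binding sequence of a factor known for activating respiratory genes, reads the same on both strands and was found in 5 of 73 windows (6.85%: Atp5g2, Atp5k, Cox6a1, Ndufa11 and Uqcrc1) against 1.07% of 27025 genes. The E-box CACGTG, bound by Myc among others, was in 6 (8.22%) against 8.09%, TATAAA in 8 (10.96%) against 15.7%, and the E2F motif GCGGGAAA or its reverse complement in 0 against 1.24%, with both strands searched. Median GC content was 58.3% and the median number of CpG 19, against 52.7% and 7 over all genes. The motif shares were not adjusted for this difference. Shown first is the window of Ndufa11 (chr17:56717512-56717811, plus strand), with the letters of the NRF1 motif as capitals. It was picked because Ndufa11 rose with Uqcrc1, another holder of the motif, in 4 knockouts as deposited. Under median ratio scaling Uqcrc1 was called in none of these 4, and Ndufa11 was not called in Ring1a/b-dKO. The window of Cox6b2 (chr7:4753045-4753344, minus strand) is shown because Cox6b2 was apart from WT in all 5 knockouts, and it holds none of these motifs. Both are printed 5′ to 3′ on the strand of the gene.
Ndufa11: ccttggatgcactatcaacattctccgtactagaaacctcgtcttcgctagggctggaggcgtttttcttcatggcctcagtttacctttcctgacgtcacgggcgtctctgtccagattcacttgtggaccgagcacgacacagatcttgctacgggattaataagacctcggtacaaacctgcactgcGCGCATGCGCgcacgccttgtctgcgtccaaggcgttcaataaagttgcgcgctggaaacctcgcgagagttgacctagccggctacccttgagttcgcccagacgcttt
Cox6b2: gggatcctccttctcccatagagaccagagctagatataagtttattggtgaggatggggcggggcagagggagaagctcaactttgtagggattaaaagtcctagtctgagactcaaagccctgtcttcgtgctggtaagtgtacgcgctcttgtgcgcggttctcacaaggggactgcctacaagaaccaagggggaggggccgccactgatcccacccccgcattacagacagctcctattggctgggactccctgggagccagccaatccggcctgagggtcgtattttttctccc

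A match describes letters in this window, not a bound site. Of the other members with the motif, Cox6a1 rose in Pcgf-6KO (0.46 ± 0.08), Atp5g2 fell in Ring1a/b-dKO (-0.50 ± 0.13) and Pcgf-4KO (-0.64 ± 0.13), and Atp5k was not called in any comparison with WT. Atp5g2 shares its sequence with the row Gm10175, at 636 TPM in WT against 36.1 TPM, so its level is uncertain.

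The genes that transcribe, process and maintain mitochondrial DNA were described as a list, with 37 tested. Of these, 9 rose and 10 fell in Ring1b-KO, 10 and 15 in Ring1a/b-dKO, 13 and 12 in Pcgf-4KO, then 14 and 13 in Pcgf-6KO, with 1 and 6 in Ring1a-KO. The share called in the first 4 was 51.4%, 67.6%, 67.6% and 73.0%, against 51.8%, 64.4%, 65.0% and 74.2% of all genes. Under median ratio scaling the counts in the first 4 were 4 and 17, 5 and 23, 6 and 21, and 8 and 20. Tfam, which packages mitochondrial DNA and activates its transcription, was at 93.6, 80.4 and 72.7 TPM in WT, 57.4, 58.2 and 52.5 in Ring1a/b-dKO and 42.5, 45.9 and 54.9 in Pcgf-6KO, without overlap. It fell by 0.54 ± 0.11 (adjusted p = 0.000509) and 0.77 ± 0.11 (adjusted p = 1.26e-05) on the log2 scale. Lrpprc, which stabilises mitochondrial messenger RNA, fell in Ring1a/b-dKO (-0.42 ± 0.05) and Pcgf-6KO (-0.58 ± 0.05). Ssbp1, the single-strand DNA binding protein of mitochondria, was at 146 ± 7.26 TPM in WT and fell to 111 ± 1.12 in Ring1a/b-dKO, 92.5 ± 5.06 in Pcgf-4KO and 62.4 ± 4.04 in Pcgf-6KO.

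Tefm, the elongation factor, fell in all 5 knockouts, by 0.58 ± 0.06, 0.76 ± 0.06, 0.70 ± 0.06, 0.63 ± 0.06 and 0.74 ± 0.06 on the log2 scale. Mterf4, which acts in assembly of the mitochondrial ribosome, rose from 18.4 ± 1.06 TPM in WT to 32.6 ± 2.53 in Ring1a/b-dKO, 33.2 ± 1.495 in Pcgf-4KO and 35.2 ± 0.528 in Pcgf-6KO. Tfb1m, which methylates mitochondrial ribosomal RNA, fell in all 5 too, most in Pcgf-6KO (-1.16 ± 0.07). Polrmt, the polymerase, rose in Ring1a/b-dKO (0.46 ± 0.12) and Pcgf-4KO (0.49 ± 0.12), and Polg, the DNA polymerase, rose from 23.9 ± 4.69 TPM in WT to 47.5 ± 2.22 in Ring1a/b-dKO and 46.6 ± 5.44 in Pcgf-6KO. The mitochondrial ribosomal RNA mt-Rnr1, made from the same long transcripts, rose in Ring1a-KO (0.88 ± 0.16) and Ring1b-KO (0.60 ± 0.16) and fell in Ring1a/b-dKO (-0.53 ± 0.16) and Pcgf-4KO (-0.52 ± 0.16). In Pcgf-6KO, where 10 protein genes fell, neither mt-Rnr1 nor mt-Rnr2 was called (0.16 ± 0.16 and 0.22 ± 0.22). The 22 mitochondrial transfer RNAs were listed at 0 in all libraries.

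Of 45 tested assembly factors of the complexes, 16 rose and 3 fell in Ring1b-KO, 16 and 8 in Ring1a/b-dKO, 23 and 4 in Pcgf-4KO, then 26 and 6 in Pcgf-6KO, with 0 and 4 in Ring1a-KO (2 and 8 at an unadjusted p under 0.05). In the first 4 groups 42.2%, 53.3%, 60% and 71.1% of them were called, beside 51.8%, 64.4%, 65.0% and 74.2% of all genes. Under median ratio scaling the counts in the first 4 were 6 and 7, 10 and 21, 10 and 16, and 15 and 13. Surf1, needed for complex IV, rose from 27.1 ± 3.72 TPM to 61.6 ± 3.08 in Pcgf-6KO (1.16 ± 0.08), and Sco2, which delivers copper to mt-Co2 protein, rose there by 1.38 ± 0.12. Nubpl and Ecsit, factors of complex I assembly, fell there by 1.02 ± 0.08 and 0.85 ± 0.08. Of 78 mitochondrial ribosomal protein genes, 3 rose and 24 fell in Ring1a-KO, 23 and 12 in Ring1b-KO, 24 and 20 in Ring1a/b-dKO, 34 and 18 in Pcgf-4KO, then 38 and 20 in Pcgf-6KO, and under median ratio scaling 2 and 25, 10 and 27, 5 and 56, 12 and 40, and 14 and 44. As deposited, 34.6%, 44.9%, 56.4%, 66.7% and 74.4% of them were called in the 5 groups, against 23.1%, 51.8%, 64.4%, 65.0% and 74.2% of all genes.

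Of 19 genes of the tricarboxylic acid cycle and pyruvate entry, 12 rose and 2 fell in Ring1b-KO, 10 and 2 in Ring1a/b-dKO, 13 and 3 in Pcgf-4KO, then 8 and 7 in Pcgf-6KO, and under median ratio scaling 7 and 4, 6 and 10, 7 and 6, and 7 and 10. As deposited, 73.7%, 63.2%, 84.2% and 78.9% of them were called, against 51.8%, 64.4%, 65.0% and 74.2% of all genes. Mpc1, a subunit of the mitochondrial pyruvate carrier, rose from 13.6 ± 1.64 TPM in WT to 36.5 ± 0.862 in Ring1a/b-dKO (1.37 ± 0.08) and 49.5 ± 2.03 in Pcgf-6KO (1.80 ± 0.08). Dlat, a subunit of pyruvate dehydrogenase, fell from 45.2 ± 3.20 to 27.2 ± 1.26 TPM in Pcgf-6KO. Of 16 genes of electron carriers and ubiquinone synthesis, 5 rose and 2 fell in Ring1b-KO, 7 and 1 in Ring1a/b-dKO, 9 and 2 in Pcgf-4KO, then 9 and 3 in Pcgf-6KO, and after median ratio scaling 3 and 3, 4 and 8, 3 and 5, then 6 and 5. As deposited, 43.75%, 50%, 68.75% and 75% of these 16 were called, beside the same all-gene shares. Cycs, the somatic cytochrome c, rose in Ring1b-KO (0.71 ± 0.05), and Cyct, the testis form, fell in Pcgf-6KO (-2.02 ± 0.09). Of 15 regulators of mitochondrial gene expression 12 were tested, of which 4 rose and 3 fell in Ring1b-KO, 6 and 2 in Ring1a/b-dKO, 6 and 2 in Pcgf-4KO, then 4 and 6 in Pcgf-6KO, and after median ratio scaling 2 and 4, 2 and 7, 2 and 6, then 3 and 8. The share of the 12 called as deposited was 58.3%, 66.7%, 66.7% and 83.3%, again against 51.8%, 64.4%, 65.0% and 74.2% of all genes. Both Myc family members of the list fell in these 4 groups, Mycn from 211 ± 1.78 TPM in the WT libraries to 32.5 ± 1.99 in Ring1b-KO, 22.6 ± 0.175 in Ring1a/b-dKO, 16.8 ± 1.66 in Pcgf-4KO and 9.003 ± 0.203 in Pcgf-6KO, and Myc from 41.1 ± 4.01 TPM to 16.4 ± 0.709, 29.8 ± 1.71, 30.06 ± 1.86 and 21.2 ± 1.57. Esrra, a nuclear receptor of respiratory genes, rose in Ring1a/b-dKO (1.02 ± 0.09), and Nrf1, whose motif is given above, fell in Pcgf-6KO (-0.53 ± 0.06). The coactivator gene Ppargc1a was at most 0.51 TPM in any library.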

How the data were processed

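RNA-seq expression of 18 mouse embryonic stem cell libraries was used as TPM values that the authors deposited in 1 gene table. Per the submitters' processing notes, TopHat2 2.1.1, RSEM and edgeR were used with the genome build GRCm38.p5. For their roles and settings, the strand setting and the rule for reads that match several places, nothing is given in the sources used here. TPM keeps no read depth, so no counting error can be given. The 6 further columns of the table hold the authors' group means and were not used.

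Values were taken as log2(TPM + 1), a gene was kept if 3 or more libraries reached 1 TPM (17842 genes), and limma 3.58.1 in R 4.3.3 was fitted to all 18 libraries with 1 mean per group (12 residual degrees of freedom, trended variance). Tests are two-sided, with p adjusted by Benjamini-Hochberg over all genes of each of 7 comparisons, and a gene is called under 0.05. The fit was tested on simulated data. Copies were found with BLAST+ 2.17.0 among annotated genes (at least 95% identity over 100 bases and 50% of the copy). Named members are the 13 mitochondrial genes, the 4 largest rises and falls per comparison among called nuclear members without overlap at 5 TPM or more, isoform pairs, the highest member of each complex, the 2 largest rises and falls of each pathway list, and Tfam, Polrmt, Nrf1, Gabpa, Esrra, Ppargc1a, Ppargc1b, Lrpprc, Slirp, Cycs and Myc. Of the 64 pathway genes this names, the text describes only some, and Ndufa9, Ndufv2, Atp5g1, Atp5l and Atp5s are named by it but not described. That choice was made after values were seen. The subunits of complexes II and III, Atp5a1, Atp5c1, Polrmt and Polg were partly added after their values were seen. Members and lists were chosen with earlier results of these data known. Libraries were grouped by genotype label, and the alternatives were other scalings, filters and pseudocounts, added copies, fits to 2 groups and leaving out libraries.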

Additional observations from a re-analysis of the deposited data

Results flagged for a closer look

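For some members, a smaller share than of all genes as deposited, the effect of knocking out Ring1a differed between cells with and without Ring1b. This was tested with an interaction term in limma, which compares the log2 change in Ring1a/b-dKO with the log2 changes of Ring1a-KO and Ring1b-KO added together, and the test was chosen after values had been seen. Of the 13 mitochondrially encoded genes, 0 were above that sum (0 at an unadjusted p under 0.05) and 6 below it (7 at an unadjusted p under 0.05). With nuclear copies added, 10 of the 13 were below it, and under median ratio scaling 9. Among the 89 tested nuclear encoded genes, 11 were above it and 25 below it, and under median ratio scaling 1 and 40. Of all genes, 33.2% were called above and 15.5% below, and under median ratio scaling 4613 and 4085 of 17842. Called either way as deposited were 46.2% of the mitochondrially encoded and 40.4% of the nuclear encoded genes, against 48.7% of all genes. The cause was not tested.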

How the results depend on the processing

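With median ratio scaling, mitochondrial genes called lower became 3 in Ring1a-KO, 1 in Ring1b-KO and 10 in Pcgf-4KO. Nuclear genes called higher and lower became 16 and 16 in Ring1b-KO, 4 and 59 in Ring1a/b-dKO, 4 and 49 in Pcgf-4KO, then 9 and 49 in Pcgf-6KO, 1 was higher in Ring1a/b-dKO against Ring1b-KO, and 14 were higher in Pcgf-6KO against Pcgf-4KO. With quantile normalization, 7 nuclear genes were lower in Ring1a-KO, and 1 mitochondrial gene was higher and 1 lower in Pcgf-4KO. Scaling to nuclear protein-coding genes left 7 nuclear genes higher in Ring1a/b-dKO against Ring1b-KO, and testing all genes without a filter left 7 mitochondrial genes lower there. Fits to 2 groups only gave 2 nuclear genes higher and 7 lower in Ring1a-KO, 6 mitochondrial genes higher in Ring1b-KO, 5 lower in Pcgf-4KO, and 7 nuclear genes lower in Pcgf-6KO against Pcgf-4KO. With nuclear copies added, which was chosen after seeing the data, 5 mitochondrial genes were higher in Ring1b-KO. Without Ring1a-KO replicates 2 and 3, also added later, 4 nuclear genes were lower in Ring1a-KO. The causes were not tested.

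The ratio of mitochondrial to nuclear sums took other levels by construction, here for WT, Ring1a-KO, Ring1b-KO, Ring1a/b-dKO, Pcgf-4KO and Pcgf-6KO. As a ratio of medians over members it was 9.21, 9.43, 11.4, 6.22, 8.23 and 5.40. With copies added it was 4.45, 4.63, 4.41, 3.51, 3.96 and 2.63. Without mt-Atp8 and mt-Nd4l it was 1.45, 1.48, 1.497, 1.08, 1.26 and 0.903. Over genes without a pseudogene copy row reaching 1 TPM it was 2.73, 2.74, 2.504, 2.05, 2.32 and 1.40, and over these without mt-Atp8 0.958, 0.928, 0.929, 0.652, 0.801 and 0.546.

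Single log2 changes reversed in 17 cases. With copies added, mt-Co2 became 0.15 in Ring1b-KO, -0.36 in Ring1a/b-dKO against Ring1b-KO and -0.37 in Pcgf-6KO against Pcgf-4KO, and mt-Co3 became -0.31 in Ring1a/b-dKO, -0.60 against Ring1b-KO and -0.44 in Pcgf-6KO against Pcgf-4KO. Under median ratio scaling, mt-Nd4, mt-Cytb and mt-Co1 became -0.32, -0.27 and -0.29 in Pcgf-4KO, Ndufa4 became -0.021 in Ring1b-KO, Cox6a1 and Cox8a became -0.12 and -0.16 in Ring1a/b-dKO, Atp5g1 became -0.082, Atp5b -0.059 and Sdha -0.19 in Pcgf-4KO, and Atp5b and Uqcrc1 became -0.16 and -0.010 in Ring1a/b-dKO. Of the other gene results under all alternatives, 3888 kept direction and side of the threshold, 162 lost their call and 39 gained one.

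Leaving out 1 library at a time, mitochondrial genes called lower ranged from 0 to 2 in Ring1a-KO, 6 to 9 in Ring1a/b-dKO, 3 to 3 in Pcgf-4KO, 9 to 10 in Pcgf-6KO, 7 to 10 in Ring1a/b-dKO against Ring1b-KO and 9 to 9 in Pcgf-6KO against Pcgf-4KO, where 0 to 1 were higher. Nuclear genes called higher and lower ranged from 3 to 6 and 7 to 18 in Ring1a-KO, 29 to 36 and 4 to 5 in Ring1b-KO, 21 to 28 and 20 to 26 in Ring1a/b-dKO, 29 to 34 and 17 to 21 in Pcgf-4KO, and 33 to 42 and 16 to 22 in Pcgf-6KO. They ranged from 8 to 10 and 39 to 43 in Ring1a/b-dKO against Ring1b-KO, and 17 to 40 and 9 to 12 in Pcgf-6KO against Pcgf-4KO, and the ratio in Pcgf-6KO from 1.46 to 1.76.

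Replicate numbers did not pair the libraries: 0 of 21 correlations of same-numbered deviations were over 0.1, from -0.109 to 0.0714, and 8 of 21 were best with their own number. A fit with the replicate block changed no call among 255 gene results. Nuclear members called higher and lower in that fit numbered 37 and 5 in Ring1b-KO and 30 and 25 in Ring1a/b-dKO.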
